A study of Mus musculus with 3 samples.

Results

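The genes described here are the protein-coding neighbours of Zbp1 on mouse chromosome 2, taken from 168000000 to 178000000 by gene start. This 10 Mb window holds 95 protein-coding genes. Zbp1 itself, Ctsz, Atp5e, Stx16, 1 gene whose name begins with Kcn and 11 whose names begin with Zfp were left out by the selection, which leaves 79 flanking genes of the 22046 protein-coding genes in the table. Of these, 31 start before Zbp1 and 48 after it. The selection rule uses name, biotype and position. Of the names it leaves out, Ctsz and Kcng1 differed by 2-fold or more in some comparison, and results with the left-out names restored are given after those of the flanking genes.

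The libraries come from the hippocampus of 10-month-old mice, all on a C57BL/6 background. One group is wild type (WT), one is PS19, and one is PS19 that is also heterozygous for Zbp1 (PS19 Zbp1+/-), with 1 library each. PS19 mice carry a mutant human tau transgene under the mouse Prnp promoter and develop tau pathology, and both PS19 groups carry it. The labels do not say how the Zbp1 allele was made, the sex of the animals, or whether RNA was pooled.

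Zbp1 encodes a sensor of left-handed Z-form nucleic acids that can start inflammatory cell death. When a gene is altered in the germ line, its neighbours stay physically linked to the altered allele through breeding, so they can carry other sequence variants of the founder line, and an inserted cassette can affect nearby transcription. Neighbouring genes are for this reason a usual control in a mutant with a targeted gene, and the question here was whether they differed between these libraries more than genes elsewhere. The far end of the window is known for a cluster of KRAB zinc finger genes, which encode DNA-binding repressors and arose by repeated duplication, so that many copies are nearly identical in sequence.

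A total of 37 of the 79 flanking genes are predicted genes whose names consist of Gm and a number, most of them from that cluster. A near-identical copy, meaning at least 90% identity over at least 50% of the longest transcript, was found for 33 of the 79 genes, 31 of them predicted. The longest transcript was taken among coding transcripts where a gene has any. In 8 of the predicted genes the whole longest transcript lies inside that of another gene. The first 120 coding bases of the genes on which the results turn are shown because reads cannot be assigned by sequence within bases that genes share. The longest coding transcripts of Gm2004 and Gm14419 are identical. The deposited gene length is 1753 bases for Gm2004 and 2680 for Gm14419, so part of Gm14419 lies outside the shared bases. Gm14295 and Gm14403, which carry differences, stand beside them for comparison. They come from GENCODE M21 transcripts (GRCm38) and are written 5′ to 3′. Capitals mark bases that differ from the first sequence of each set.
Gm2004, chr2:176141591-176149825, minus strand: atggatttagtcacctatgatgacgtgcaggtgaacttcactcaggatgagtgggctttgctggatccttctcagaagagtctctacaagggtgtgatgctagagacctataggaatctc
Gm14419, chr2:177000956-177012787, plus strand: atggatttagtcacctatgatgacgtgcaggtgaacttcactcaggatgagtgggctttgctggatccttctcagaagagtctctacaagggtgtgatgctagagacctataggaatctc
Gm14295, chr2:176798612-176811223, plus strand: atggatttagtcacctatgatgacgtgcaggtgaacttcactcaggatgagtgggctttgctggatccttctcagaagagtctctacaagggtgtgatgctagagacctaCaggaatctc
Gm14403, chr2:177498215-177509763, plus strand: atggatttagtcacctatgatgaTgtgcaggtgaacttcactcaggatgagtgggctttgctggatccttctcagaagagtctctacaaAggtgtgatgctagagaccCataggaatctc
The second set compares Gm11007 with a copy that shares its whole transcript.
Gm11007, chr2:175643978-175653860, plus strand: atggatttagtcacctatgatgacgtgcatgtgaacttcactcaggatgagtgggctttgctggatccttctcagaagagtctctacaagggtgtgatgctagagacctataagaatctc
Gm14308, chr2:176613364-176636344, minus strand: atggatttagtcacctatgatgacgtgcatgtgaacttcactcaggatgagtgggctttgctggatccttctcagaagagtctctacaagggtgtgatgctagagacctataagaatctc
Gm2004 and Gm14419 had 0 differences here and over the whole 1749 bases of their longest coding transcripts. Gm14295 had 1 difference from Gm2004 in these 120 bases and Gm14403 had 3. Gm11007 and Gm14308 were identical in these bases.

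The recovered reads per library numbered between 16400328 and 17109734. The library labelled PS19 Zbp1+/- stood apart from the others in several ways. It had 0 Xist reads and 1887 reads on 4 Y-linked genes, while WT and PS19 had 11062 and 13350 Xist reads and 0 Y-linked reads. Choroid plexus markers summed to an FPKM of 3128 for WT, 1915 for PS19 and 10.8 for PS19 Zbp1+/-, and no marker of this list was at 0 reads. Of genes with 8 to 12 reads in both other libraries, 16.0% were at 0 in PS19 Zbp1+/-, against 2.14% in WT and 0.410% in PS19. Genotype and these features cannot be told apart with 1 library per genotype, and no difference below has a replicate check. Intervals given with read ratios are exact (Clopper-Pearson) 95% intervals and cover only the counting error between 2 libraries, because reads that carry no molecular identifier can be copies of 1 molecule. In bulk tissue, fewer cells of a type and less RNA per cell cannot be told apart.

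Zbp1 (ENSMUSG00000027514, positions 173206612 to 173218923, minus strand) had 5 reads for WT, 91 for PS19 and 0 for PS19 Zbp1+/-. These are FPKM values of 0.0821, 1.49 and 0, where FPKM is the fragment count per kilobase of a gene after scaling for library size. If reads are independent, a count of 0 allows up to 3 reads, an FPKM of 0.0537, so Zbp1 in PS19 Zbp1+/- was at least 27.8-fold lower than in PS19. The many genes at 0 in this library, given above, mean that this bound may be too high. Zbp1 was thus not detected in the library labelled as keeping 1 intact allele. Against the 5 reads of WT the bound was only 1.53-fold. Zbp1 is itself induced by interferon, and the 8 interferon response markers summed to an FPKM of 17.2 for WT, 90.2 for PS19 and 10.4 for PS19 Zbp1+/-. Of these, 7 of 8 were called higher in PS19 against WT and 8 of 8 lower in PS19 Zbp1+/- against PS19. Their part in the Zbp1 reads was not tested, and whether the animal was heterozygous or null cannot be told from these reads.

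Reads on the flanking genes summed to 24699 for WT, 25040 for PS19 and 28596 for PS19 Zbp1+/-, or 0.147%, 0.153% and 0.167% of each library. An FPKM of at least 1 was reached by 40 of the 79 in some library and by 30 in all 3. The other 39 stayed below it in every library, 9 of them with 0 reads throughout. The genes at or above 1 numbered 35 for WT, 36 for PS19 and 34 for PS19 Zbp1+/-. The 5 with the highest mean were Atp9a, Bcas1, Rtf2, Vapb and Prelid3b, which had FPKM values from 15.3 to 116.

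Differences were taken between log2(FPKM + 1) values, for genes with 1 FPKM or more in at least 1 of the 2 libraries compared. A gene was called higher or lower at 1 log2 unit or more, which is 2-fold on that scale. The measure understates the change of genes with low FPKM. Each library enters 2 of the 3 comparisons, so these are not independent of each other.

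In PS19 against WT, 2 of 38 flanking genes tested were called, or 5.26% (exact binomial 95% interval 0.644% to 17.7%). Over all 12703 protein-coding genes tested the share was 2.5%. Both called genes were higher in PS19, namely the predicted zinc finger genes Gm2004 and Gm11007, and the share of all genes called higher was 2.20%. No flanking gene was called lower on this scale, where the share over all genes was 0.291%. Gm14419 was called lower with pseudocounts of 0.1 and 0.5 and with TPM. The median difference of the flanking genes was -0.05, against -0.03 over all genes, and the median absolute difference was 0.22 against 0.20. Per chromosome, the median absolute difference ran from 0.18 to 0.22 over the 19 autosomes, with chromosome 2 taken outside the window.

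In PS19 Zbp1+/- against PS19, 2 of 38 were called, again 5.26%, and the share over all 12772 genes was 7.16%. Bcas1 and Edn3 were lower, and no flanking gene was called higher. The shares over all genes were 5.16% lower and 2.0% higher. With libraries scaled by total reads or rescaled to TPM, 6 flanking genes were called lower and 0 higher, or 15.8%. Over all genes 856 and 1495 were then lower and the called shares were 7.85% and 13.2%, with medians of -0.12 and -0.23. The median difference was 0.08, against 0.04 over all genes. The median absolute difference was 0.40, against 0.30 over all genes and a range of 0.25 to 0.34 over the 19 autosomes. Only 60.5% of the flanking genes, 23 of 38, lay under 0.5 log2 units, compared with 72.1% of the other protein-coding genes.

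Against WT, PS19 Zbp1+/- had 2 of 39 called, or 5.13%, and over all 12436 genes 3.35%. Adnp was higher and Gm14322 lower. The shares over all genes were 1.07% higher and 2.28% lower. The median difference was -0.03, against 0.01 over all genes. The median absolute difference was 0.28, against 0.25 over all genes and a range of 0.23 to 0.26 over the autosomes, and 66.7% of flanking genes lay under 0.5 log2 units against 80.5% of the others.

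The number of flanking genes called was thus 2 in each comparison, a share above the background in both comparisons with WT and below it in PS19 Zbp1+/- against PS19. The place of the last share depends on the setting. It lay above the share over all genes with a pseudocount of 0.1 (21.1% against 12.6%) or 0.5 (15.8% against 9.83%). The same held with total reads (15.8% against 7.85%), with TPM (15.8% against 13.2%) and at 1.5-fold (28.9% against 21.5%). With a mean FPKM of at least 5 it also lay above, at 5.88% against 5.42%. It stayed below with no filter on low values (2.94% against 5.35%) and at 4-fold (0% against 0.893%). A minimum of 50 reads over both libraries also left it below, with 2 of 40 called against 6.29%. The interval of 0.644% to 17.7% on 2 of 38 holds the background of both comparisons with that count, and 0.627% to 17.3% on 2 of 39 holds that of the third. Differences between 0.5 and 1 log2 units made up a larger share of flanking genes than of other genes in both comparisons with PS19 Zbp1+/-. These shares rest on 38 and 39 genes, were not tested and cannot set the flanking genes apart. Each autosome has at least 362 genes tested, so its median is steadier than one over 38 genes. The larger median absolute difference of the flanking genes was not tested either. With no filter on low values it lay below that of all genes, at 0.20 against 0.25 in PS19 Zbp1+/- against PS19. In PS19 Zbp1+/- against WT it was then 0.18 against 0.20.

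**Figure D1:**
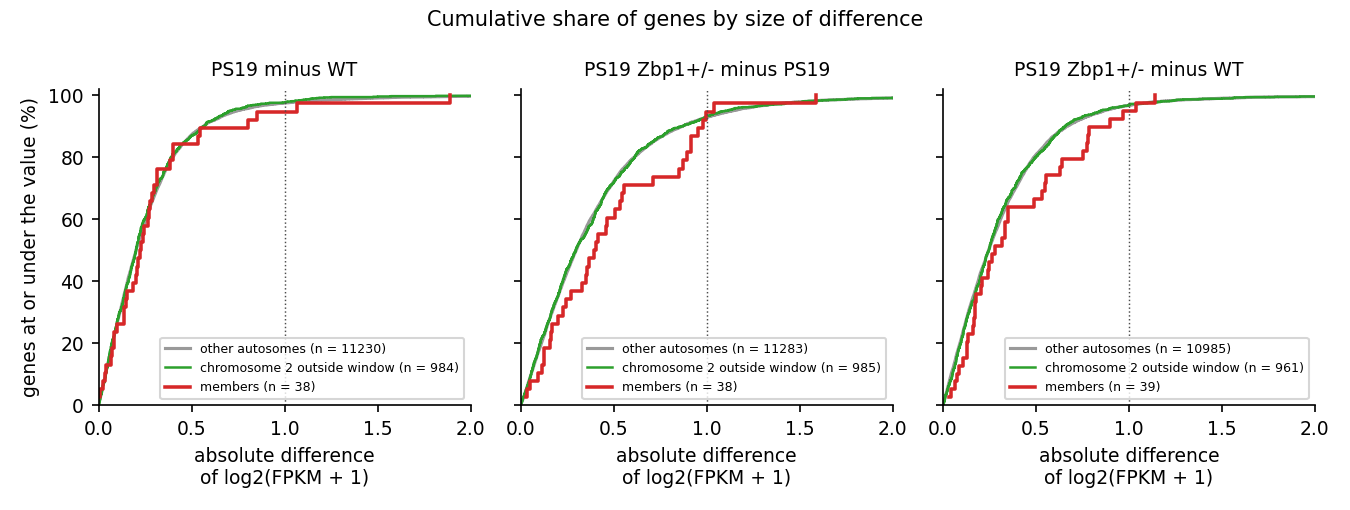
Cumulative share of genes (percent, vertical axis) at or under each absolute difference of log2(FPKM + 1) (horizontal axis), for the flanking genes (members, red), chromosome 2 outside the window (green) and the other autosomes (grey), with the dotted line at 1 log2 unit. The red line runs under the others between 0.5 and 1 in both comparisons with PS19 Zbp1+/-, where 60.5% and 66.7% of flanking genes are under 0.5, and meets them near 1.

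Just past and just short of 1 log2 unit lay Gm11007 at 1.069 and Gm14419 at -0.852 in PS19 against WT. For PS19 Zbp1+/- against PS19 these were Edn3 at -1.042 and Gm14322 at -0.998. For PS19 Zbp1+/- against WT they were Gm14322 at -1.036 and Gm2004 at 0.971. In both comparisons with PS19 Zbp1+/- the count of called genes turns on small margins.

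In PS19 Zbp1+/- against PS19 the interval of the read ratio lay above 1 for 15 of the 38 genes tested and below 1 for 12, and it held 1 for 11. These are 39.5%, 31.6% and 28.9%, where all protein-coding genes tested gave 39%, 32.6% and 28.3%. In PS19 against WT the numbers were 10, 13 and 15, or 26.3%, 34.2% and 39.5%, against 28.3%, 32.7% and 39% over all genes. The flanking genes thus lay near the background in both comparisons. In PS19 Zbp1+/- against WT the numbers were 15, 13 and 11 of 39, or 38.5%, 33.3% and 28.2%. All genes gave 35.3%, 31.3% and 33.5% there, so fewer intervals of flanking genes held 1, which was not tested. The ratios use library sizes implied by the FPKM values, not the totals of recovered reads. For PS19 Zbp1+/- the implied size of 15826984 lies below its 17109734 reads, while for WT and PS19 it lies above theirs. With totals every ratio of PS19 Zbp1+/- to another library would be lower, and how many intervals would then hold 1 was not counted. Such intervals treat each read as independent. With PS19 Zbp1+/-, where 16.0% of genes with 8 to 12 reads in both other libraries were at 0, they may be too narrow even for read sampling. They say nothing of variation between animals.

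The 5 nearest genes on the side before Zbp1 were Spo11, Rae1, Rbm38, Ctcfl and Pck1. Rae1, an mRNA export and mitotic factor of the nuclear pore, had an FPKM of 16.8 for WT, 15.0 for PS19 and 19.5 for PS19 Zbp1+/-. Rbm38, an RNA-binding protein that acts in the p53 pathway, had 1.23, 1.63 and 0.991 in the same order. Neither gene was called in any comparison. Spo11, the enzyme that makes DNA breaks in meiosis, had 18, 8 and 0 reads and was too low to be tested. Ctcfl, a testis-expressed relative of the insulator protein CTCF, and Pck1, the gluconeogenic enzyme of liver and kidney, had 0 reads in all 3 libraries.

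On the other side the nearest gene was Pmepa1, which encodes a membrane protein that dampens TGF-beta signalling. It starts 0.0178 Mb from the start of Zbp1 and had an FPKM of 6.92 for WT, 6.91 for PS19 and 10.6 for PS19 Zbp1+/-. WT and PS19 were almost equal and the third library lay above both. Its read ratio of PS19 Zbp1+/- to PS19 was 1.54 (1.38 to 1.71), a difference of 0.55 log2 units that was not called. That difference was 0.38 with total reads and 0.32 with TPM. The next were 1700021F07Rik and Ankrd60, with 0 reads in every library, Rab22a, and 1700010B08Rik, with 1 read in PS19 Zbp1+/- alone. Rab22a, a small GTPase of early endosomes, had 6.99, 7.89 and 8.05. Of the 10 nearest genes, then, only Rae1, Rbm38, Pmepa1 and Rab22a reached an FPKM of 1 in any library and could be called. None was. The shares over all genes were 2.5% in PS19 against WT, 7.16% in PS19 Zbp1+/- against PS19 and 3.35% in PS19 Zbp1+/- against WT. So few genes cannot be set apart from those shares.

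By distance, the counts can be read against the shares over all genes of 2.5% in PS19 against WT, 7.16% in PS19 Zbp1+/- against PS19 and 3.35% in PS19 Zbp1+/- against WT. Of the flanking genes within 1 Mb of Zbp1, 0 were called in all 3 comparisons, among 10 tested in PS19 against WT and 11 in each of the others. From 1 to 2.5 Mb there was 1 call among 8 tested in PS19 against WT, 1 among 8 in PS19 Zbp1+/- against PS19, and 0 among 7 in PS19 Zbp1+/- against WT. Beyond 2.5 Mb there were 1 of 20, 1 of 19 and 2 of 21. The median absolute difference in PS19 Zbp1+/- against PS19 was 0.35 within 1 Mb, 0.59 from 1 to 2.5 Mb and 0.42 beyond. These classes hold 7 to 21 genes, and the counts are too small to read a pattern with distance from them.

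Split by side, calls in PS19 against WT numbered 0 of 16 before Zbp1 and 2 of 22 after it. They were 1 of 18 and 1 of 20 in PS19 Zbp1+/- against PS19, and in PS19 Zbp1+/- against WT 1 of 18 and 1 of 21. Against the same shares of 2.5%, 7.16% and 3.35%, these counts are too small to set 1 side apart from the other. The first member of the window, Pard6b, a cell polarity factor, had FPKM values of 1.77, 1.40 and 2.49, and the last, Gm14326, had 3.91, 4.59 and 4.13. Outside the window, the nearest protein-coding genes were Ripor3, with 0.109, 0.191 and 0, and Zfp971, with 4.13, 3.67 and 2.98. No call was made for any of these edge genes.

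**Figure D2:**
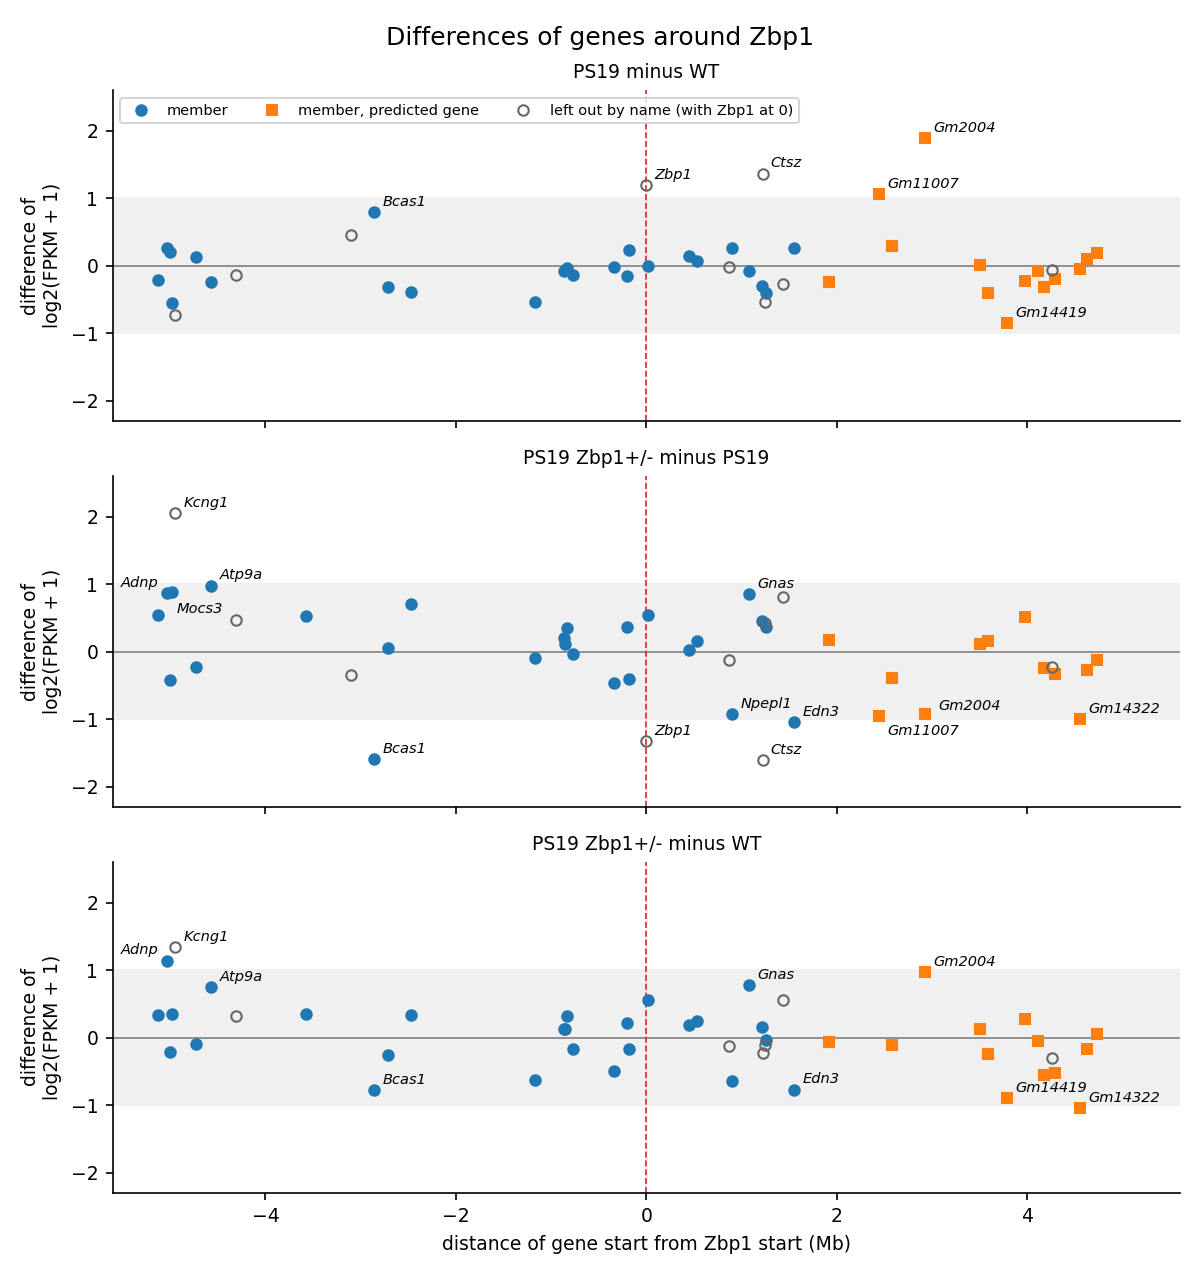
Difference of log2(FPKM + 1) (vertical axis) against the distance of each gene's start from that of Zbp1 (Mb, horizontal axis) in the 3 comparisons; blue circles are flanking genes with names other than Gm and a number, orange squares are predicted genes, open circles are the genes left out by name, and the grey band spans -1 to 1. Within 1 Mb of the dashed line at Zbp1 every flanking gene lies inside the band, and the flanking genes outside it in any comparison are Gm2004, Gm11007, Bcas1, Edn3, Adnp and Gm14322.

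Among 6 genes of membrane traffic, lipid transport and cell polarity, all 6 were tested and 0 were called in any comparison. Over all genes, the called shares were 2.5% in PS19 against WT, 7.16% in PS19 Zbp1+/- against PS19 and 3.35% in PS19 Zbp1+/- against WT. The counts in this group and in those below are too small to set a group apart from these shares. Atp9a, a lipid-flipping P4-ATPase of endosomes and the flanking gene with the highest mean over the 3 libraries, had an FPKM of 68.7 for WT, 58.6 for PS19 and 116 for PS19 Zbp1+/-. From 5991 reads in PS19 and 10890 in PS19 Zbp1+/-, the ratio was 1.99 (1.92 to 2.05). Its difference of 0.98 log2 units was just short of a call. Vapb, an endoplasmic reticulum protein that tethers organelles and is mutated in a familial motor neuron disease, had 20.4, 21.6 and 24.4. Prelid3b, a mitochondrial phospholipid carrier, had 656, 491 and 588 reads. All 6 differences lay above 0 in PS19 Zbp1+/- against PS19, from 0.03 to 0.98, with a median of 0.28 against 0.04 over all genes. With scaling by total reads 4 of 6 lay above 0, with a median of 0.11, and with TPM 3 of 6 did, with a median of 0.02, so the direction of the group depends on the scaling while Atp9a stayed above 0 at 0.79 and 0.70.

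Neuronal marker genes mostly lay above 0 in that comparison as well. Their summed FPKM was 848 for WT, 711 for PS19 and 1091 for PS19 Zbp1+/-, 6 of 7 lay above 0 and 1 was called higher, with a median difference of 0.45. With total reads and with TPM, 5 of 7 lay above 0 and 0 were called higher, with medians of 0.26 and 0.17. Whether this bears on Atp9a and the other genes of the group was not tested.

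Of 8 genes for ligands, receptors and signalling proteins, 6 were tested in each comparison and 1, Edn3, was called. Edn3 (ENSMUSG00000027524, 174760619 to 174784042, plus strand) encodes endothelin 3, a secreted vasoactive peptide that also guides neural crest cells. It had 123 reads for WT, 163 for PS19 and 39 for PS19 Zbp1+/-, or FPKM values of 1.73, 2.29 and 0.599. PS19 Zbp1+/- was the lowest library and PS19 the highest. The difference to PS19 was -1.04, a read ratio of 0.261 (0.179 to 0.373). Against WT it was -0.77 and was not called. Choroid plexus markers were lower in the same library in 8 of 8 genes in both comparisons, with medians of -3.19 and -3.66. In PS19 against WT, 7 of the 8 lay below 0, with a median of -0.25, while Edn3 was at 0.27 with a read ratio of 1.32 (1.04 to 1.69). The part of the choroid plexus in the level of Edn3 was not tested.

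Gnas (ENSMUSG00000027523, 174284320 to 174346744, plus strand) encodes the stimulatory G protein alpha subunit and is an imprinted locus with several alternative transcripts. Its FPKM was 11.0 for WT, 10.4 for PS19 and 19.6 for PS19 Zbp1+/-, where WT and PS19 were alike and the third library was higher than both. From 2016 and 3468 reads, the ratio of PS19 Zbp1+/- to PS19 was 1.88 (1.78 to 1.99). Its difference of 0.85 log2 units was not called, and it was 0.67 with total reads and 0.61 with TPM. The predicted gene Gm20721 overlaps 13.1% of its exon bases on the other strand and held 0 to 4 reads. The table has 1 value per gene, so the Gnas transcripts, maternal and paternal, are not separated.

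Cbln4, a secreted synaptic organiser of the cerebellin family, had an FPKM of 6.57 for WT, 4.23 for PS19 and 3.90 for PS19 Zbp1+/-, so both PS19 libraries lay below WT. Bmp7, a bone morphogenetic protein, had 3.69, 3.61 and 2.34. Dok5, an adaptor of receptor tyrosine kinases in neurons, had 6.10, 4.45 and 7.93. None of these was called.

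Among genes for transcription factors and chromatin, 2 of 6 were tested in PS19 against WT and 3 in the others, and Adnp was called. Adnp (ENSMUSG00000051149, 168180986 to 168207112, minus strand) encodes a homeodomain protein of chromatin complexes that is mutated in a human neurodevelopmental syndrome. It had 88 reads for WT, 125 for PS19 and 280 for PS19 Zbp1+/-, or FPKM values of 0.953, 1.35 and 3.31. PS19 Zbp1+/- was the highest library and WT the lowest. Against WT the difference was 1.14, a read ratio of 3.47 (2.72 to 4.46), and against PS19 it was 0.87, a ratio of 2.45 (1.97 to 3.05), which was not called. The predicted gene Gm20716 overlaps 82.1% of the exon bases of Adnp on the same strand and had 0 reads in every library. How reads in the shared bases were counted is not given in the sources used here, so the level of Adnp is uncertain. Tshz2, a zinc finger homeodomain factor, had FPKM values of 0.857, 0.632 and 1.36, and Nfatc2, a calcium-regulated factor, had 1.60, 1.86 and 1.45.

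Adnp, Mocs3 and Atp9a start close together at the beginning of the window, about 5 Mb before Zbp1. Mocs3, which activates the sulphur carriers of molybdenum cofactor synthesis and tRNA thiolation, had 288, 187 and 345 reads, and its ratio of PS19 Zbp1+/- to PS19 was 2.02 (1.68 to 2.42) without a call. Between Mocs3 and Atp9a lies Kcng1, a modifier subunit of voltage-gated potassium channels that the selection leaves out, with 10.4, 5.94 and 27.8. That gene differed by 2.05 log2 units between PS19 Zbp1+/- and PS19. Of the 10 flanking genes in the first 2 Mb of the window, a stretch chosen after the values had been seen, 7 were tested in this comparison. There, 5 lay above 0 and the median was 0.54, or 0.44 with total reads and 0.63 with TPM. Dpm1, a subunit of dolichol-phosphate mannose synthase, and Nfatc2 lay below, at -0.42 and -0.23. In PS19 against WT the median of the 6 tested in this stretch was -0.04.

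Genes of RNA processing, transcription elongation and cell division made no call, with 5 tested in PS19 against WT and 6 in the others. Over all genes 2.5% were called in PS19 against WT, 7.16% in PS19 Zbp1+/- against PS19 and 3.35% in PS19 Zbp1+/- against WT. Rtf2, a protein of replication fork control and RNA splicing, had 26.5, 24.0 and 23.4. Nelfcd, a subunit of the negative elongation factor that pauses RNA polymerase, had 16.1, 12.9 and 18.2. Cstf1, a subunit of the complex that cleaves mRNA before polyadenylation, had 7.34, 7.16 and 9.39. The differences of this group in PS19 Zbp1+/- against PS19 ranged from -0.40 to 0.46.

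Of 7 enzymes and chaperones, 4 were tested and 0 called, against shares of 2.5% to 7.16% over all genes in the 3 comparisons. Npepl1, an aminopeptidase-like protein, came closest, with an FPKM of 6.67 for WT, 8.28 for PS19 and 3.92 for PS19 Zbp1+/-. Its read ratio of PS19 Zbp1+/- to PS19 was 0.474 (0.397 to 0.564), and its difference was -0.92. Pfdn4, a prefoldin subunit that helps fold actin and tubulin, had 5.50, 4.22 and 4.41.

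Bcas1 (ENSMUSG00000013523, 170346991 to 170427845, minus strand) differed most among the flanking genes in PS19 Zbp1+/- against PS19. It encodes a protein of myelin and of oligodendrocytes that are starting to myelinate. Its reads numbered 2364 for WT, 4181 for PS19 and 1234 for PS19 Zbp1+/-, or FPKM values of 36.3, 64.1 and 20.7. PS19 was the highest library and PS19 Zbp1+/- the lowest, with WT between them. The difference was -1.59 from PS19 to PS19 Zbp1+/-, a read ratio of 0.322 (0.302 to 0.344), which is 3.10-fold lower. From WT to PS19 it was 0.80, a ratio of 1.77 (1.68 to 1.86), and from WT to PS19 Zbp1+/- it was -0.78, and neither was called.

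The markers of myelinating oligodendrocytes had the same order as Bcas1. The 7 genes Mbp, Mog, Mag, Mal, Cldn11, Cnp and Mobp summed to an FPKM of 661 for WT, 1191 for PS19 and 454 for PS19 Zbp1+/-, and none was at 0 reads. All 7 were called lower in PS19 Zbp1+/- against PS19, with a median of -1.38. In PS19 against WT 7 lay above 0 and 1 was called higher, with a median of 0.81, and in PS19 Zbp1+/- against WT 7 lay below 0, with a median of -0.55. Markers of newly formed oligodendrocytes summed to 10.4, 12.5 and 7.13, and 1 of 5 was called lower in PS19 Zbp1+/- against PS19. The part of these cells in the Bcas1 values was not tested.

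Noncoding genes lie on the other strand of Bcas1. One of them, Bcas1os2, named after its values were seen, had 11 reads for WT, 22 for PS19 and 1 for PS19 Zbp1+/-. The interval of its PS19 to WT ratio, 0.928 to 4.56, held 1. Bcas1os1 overlaps 11.7% of the exon bases of Bcas1. Whether counting used the strand is not given in the sources used here. If it did not, reads in the bases that Bcas1 shares with such a partner cannot be told apart, while reads in its other bases can.

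**Figure D3:**
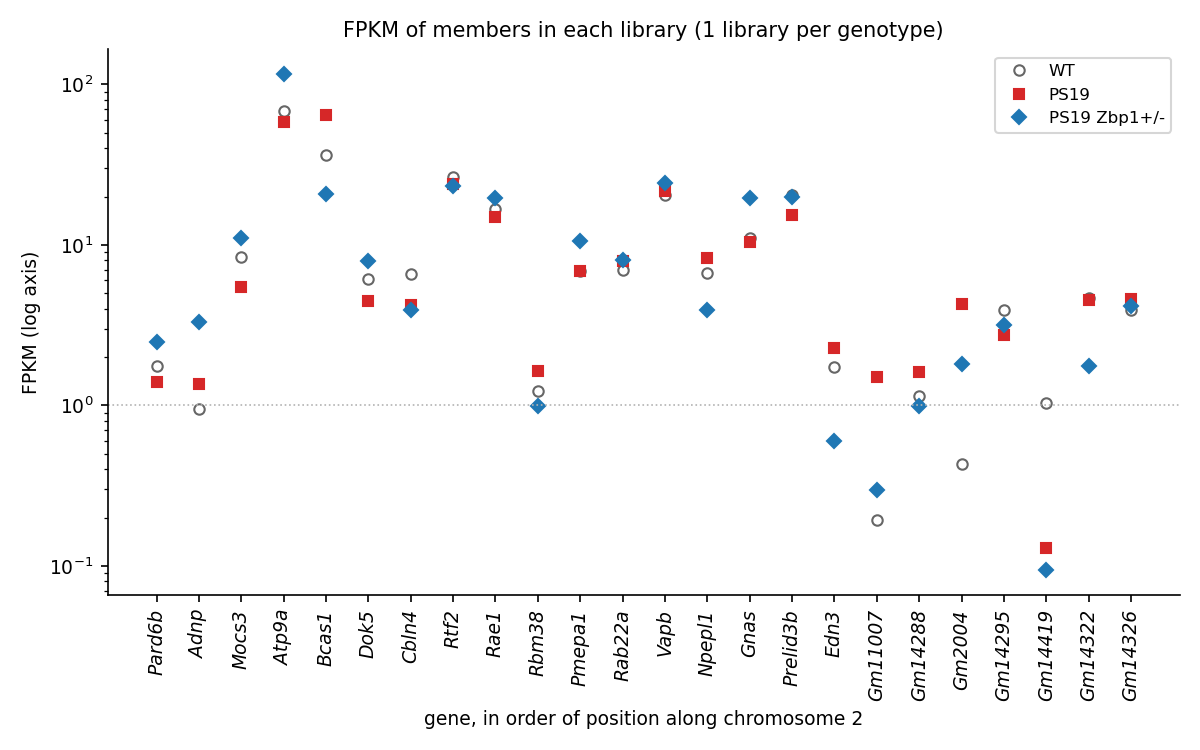
FPKM on a log axis (vertical) of the flanking genes named by rule that reached an FPKM of 1, in order along chromosome 2 (horizontal), with 1 point per library: open circles WT, red squares PS19, blue diamonds PS19 Zbp1+/-. The diamonds lie above both other points for Adnp, Atp9a, Pmepa1 and Gnas and below both for Bcas1, Npepl1, Edn3 and Gm14322, while Gm2004 and Gm14419 have opposite orders in WT and PS19.

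The predicted genes hold 3 of the genes called in any comparison, Gm2004, Gm11007 and Gm14322. Calls numbered 2 of 14 tested in PS19 against WT and 1 of 13 in PS19 Zbp1+/- against WT. All genes gave 2.5% and 3.35%, and such small counts cannot be set apart from these shares. Of the 37 predicted genes, an FPKM of at least 1 in any library was reached by 14. The median difference of those tested was -0.06 in PS19 against WT (0.03 with TPM), -0.26 in PS19 Zbp1+/- against PS19 (-0.39 with total reads and -0.58 with TPM) and -0.11 in PS19 Zbp1+/- against WT. Read together, all 37 had 1877 reads for WT, 1915 for PS19 and 1631 for PS19 Zbp1+/-. The pooled read ratio was 1.02 (0.955 to 1.09) in PS19 against WT and 0.930 (0.870 to 0.994) in PS19 Zbp1+/- against PS19. In PS19 Zbp1+/- against PS19, 0 of the 12 tested were called as deposited, where all genes gave 7.16%. With total reads and with TPM 3 were called lower, where 7.85% and 13.2% of all genes were called in either direction. With TPM 11 of the 12 lay below 0.

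Gm2004 (ENSMUSG00000095648) had 13 reads for WT, 130 for PS19 and 50 for PS19 Zbp1+/-, or FPKM values of 0.430, 4.29 and 1.80. Its difference of 1.89 in PS19 against WT was the largest of any flanking gene in any comparison, with a read ratio of 9.98 (5.64 to 19.2). Gm14419 (ENSMUSG00000078875), whose sequence above is the same, had 48, 6 and 4 reads, or FPKM values of 1.04, 0.130 and 0.0943. WT was the highest library and both PS19 libraries were low, and its difference of -0.85 in PS19 against WT was not called. It was -2.31 with a pseudocount of 0.1, -1.29 with 0.5 and -1.65 with TPM, past the threshold in each.

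The pair taken as 1 had 61 reads for WT, 136 for PS19 and 54 for PS19 Zbp1+/-. Its ratio was 2.23 (1.63 to 3.06) in PS19 against WT, 0.434 (0.310 to 0.599) in PS19 Zbp1+/- against PS19 and 0.965 (0.656 to 1.42) in PS19 Zbp1+/- against WT. The pair was thus higher in PS19 than in either other library by more than counting error, by far less than the 9.98 of Gm2004 alone. Gm2004 took 21.3% of the pair's reads in WT (exact interval 11.9% to 33.7%), 95.6% in PS19 (90.6% to 98.4%) and 92.6% in PS19 Zbp1+/- (82.1% to 97.9%). How the authors' counting divided reads in the shared bases is not given in the sources used here, so neither gene's own level is certain. Which reads of Gm14419 lay in its other bases cannot be seen from 1 value per gene.

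**Figure D4:**
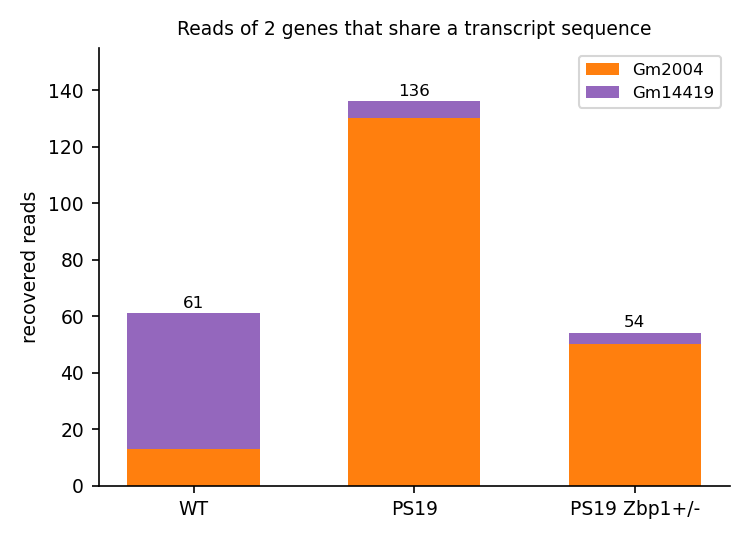
Recovered reads (vertical axis, from 0) of Gm2004 (orange) and Gm14419 (purple), stacked, in each of the 3 libraries (horizontal axis), with the sum above each bar. WT has mostly Gm14419 and both PS19 libraries have mostly Gm2004, and the sums are 61, 136 and 54.

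Gm11007 (ENSMUSG00000094475) had 5 reads for WT, 39 for PS19 and 7 for PS19 Zbp1+/-, with a difference of 1.07 in PS19 against WT and a ratio of 7.78 (3.07 to 25.3). Its 1497-base transcript is held whole by Gm14308, Gm14434, Gm2007, Gm4631 and Gm4724. These 6 genes together had 31, 54 and 32 reads, and the pooled ratio in PS19 against WT was 1.74 (1.10 to 2.80). As with Gm2004, PS19 stayed the highest library and the ratio to WT was smaller once copies were pooled. Unlike the Gm2004 pair, the interval of the pooled ratio of PS19 Zbp1+/- to PS19 held 1, at 0.647 (0.404 to 1.02).

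Gm14322 (ENSMUSG00000078864) had 101 reads for WT, 98 for PS19 and 35 for PS19 Zbp1+/-, or FPKM values of 4.67, 4.52 and 1.76. WT and PS19 were alike and the third library lay below both. The difference was -1.04 against WT, a read ratio of 0.378 (0.250 to 0.560). Its closest copy, Gm14403, is 93.5% identical over 99.7% of the transcript and had 5.25, 4.44 and 3.32, in the same order. The neighbouring Gm14295, 1 base from Gm2004 in the stretch printed above, had 3.93, 2.74 and 3.17, and Gm14288 had 1.15, 1.62 and 0.992.

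Without the genes that have a near-identical copy or an exon overlap of at least 50%, 0 of 23 flanking genes were called in PS19 against WT and 0 of 25 in PS19 Zbp1+/- against WT, while 2 of 24, Bcas1 and Edn3, were called in PS19 Zbp1+/- against PS19. The shares over all genes were 2.5% in PS19 against WT, 3.35% in PS19 Zbp1+/- against WT and 7.16% in PS19 Zbp1+/- against PS19. Counts of 0 on so few genes cannot be set apart from such shares. With the left-out names restored and Zbp1 still excluded, 46 genes were tested in each comparison. The called shares were 6.52% in PS19 against WT, 8.70% in PS19 Zbp1+/- against PS19 and 6.52% in PS19 Zbp1+/- against WT, beside the same shares over all genes. The additions were Ctsz in PS19 against WT, Ctsz and Kcng1 in PS19 Zbp1+/- against PS19, and Kcng1 in PS19 Zbp1+/- against WT. Ctsz, a lysosomal protease that microglia express strongly, had FPKM values of 26.0, 68.9 and 22.1 beside a summed microglia marker FPKM of 160, 556 and 170, and the part of these cells was not tested.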

How the data were processed

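The authors deposited 1 table of FPKM values for 54532 genes, with 1 column for each of the 3 libraries and each gene's position, length and biotype. Per the submitters' processing notes, Trim Galore 0.6.5, STAR 2.5.3a, featureCounts 2.0.4 and the mm39 build were used. Strandedness, the annotation release and the treatment of reads that match several genes are not given in the sources used here. Positions in the table equal those of GENCODE M21 (GRCm38) for 98.3% of the 54495 IDs found there and for all 79 flanking genes, and are printed as the table gives them. FPKM times gene length was a whole multiple of 1 step for 100% of values in each library, within a tolerance of 0.001, so whole reads were recovered. They sum to 16746085, 16400328 and 17109734 in WT, PS19 and PS19 Zbp1+/-, and the library sizes implied by the steps, used for read ratios, are 17253479, 17287957 and 15826984.

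Protein-coding genes that reached an FPKM of 1 in either library were compared by their difference of log2(FPKM + 1) and called at 1 log2 unit. With 1 library per genotype no p-value was computed, and no count model was fitted. A library with 0 reads entered a ratio at 3 reads, which makes that ratio a bound. Copies were sought among GENCODE M21 transcripts with BLAST 2.17.0, and sequences were read from the same transcripts. Each gene entered with its longest coding transcript, or its longest transcript where none codes. Scripts ran under Python 3.11.15 with pandas 2.3.3, numpy 2.4.6, matplotlib 3.10.9 and scipy 1.17.1, and were tested on simulated data.

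Named by rule were the 5 nearest genes on each side, the 5 largest increases and decreases per comparison, every called gene, the 5 highest means, and the genes at the window's ends. This named 30 genes; other names were added after their values were seen, to describe their functional group. Members, groups and marker lists were chosen with earlier results of these data known. One gene of a marker list is not reported here and is left out of that list's values. Alternatives were pseudocounts of 0.1 and 0.5, 2 other scalings, 3 other filters, thresholds of 1.5-fold and 4-fold, a narrower window, all biotypes and no predicted genes. After the data had been seen, 2 were added: the left-out names restored, and genes with copies or overlaps removed.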

Additional observations from a re-analysis of the deposited data

How the results depend on the processing

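No paired analysis was possible because each genotype has 1 library, and for the same reason no replicate could be left out. Of 114 summaries of the flanking genes under the alternatives, 88 stayed within the exact interval of the reported share or within 0.1 log2 units of the reported median, and 26 moved. Of 360 values for named genes, 55 moved beyond counting error, and 0 called values changed direction.

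The called share in PS19 against WT was 0% with a mean FPKM of at least 5, without predicted genes, within 2 Mb of Zbp1, and without genes that have copies or overlaps. Against WT, PS19 Zbp1+/- had 0% with a mean FPKM of at least 5, within 2 Mb and without copies or overlaps. With a mean FPKM of at least 5, all genes gave 1.32% in PS19 against WT and 2.39% in PS19 Zbp1+/- against WT. In the other cases the shares over all genes stay at 2.5% and 3.35%. Fewer flanking genes were tested in each of these cases, too few to set 0% apart from such shares. At 4-fold the called share was 0% in all 3 comparisons, where all genes gave 0.307%, 0.893% and 0.482%. In PS19 Zbp1+/- against PS19 it was 21.1% with a pseudocount of 0.1 and 28.9% at 1.5-fold, where all genes gave 12.6% and 21.5%. At 1.5-fold it was 25.6% in PS19 Zbp1+/- against WT, and 13.8% over all genes. Against 2 calls as reported, a pseudocount of 0.5 gave 6 in PS19 Zbp1+/- against PS19, where all genes gave 9.83%. Pseudocounts of 0.1 and 0.5 and TPM gave 5 in PS19 Zbp1+/- against WT, where all genes gave 6.70%, 4.77% and 6.22%, and 3 in PS19 against WT, where all genes gave 5.05%, 3.5% and 5.05%. Restoring the left-out names gave 4 in PS19 Zbp1+/- against PS19. A minimum of 50 reads left 1 in PS19 against WT, the loss of predicted genes left 1 in PS19 Zbp1+/- against WT, and a mean FPKM of at least 5 or the narrower window left 1 in PS19 Zbp1+/- against PS19. All genes gave 2.18% in PS19 against WT with a minimum of 50 reads. They gave 5.42% in PS19 Zbp1+/- against PS19 with a mean FPKM of at least 5.

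Scaling moved the medians of all genes as well. Rescaled to TPM, the median of the flanking genes was 0.07 in PS19 against WT, -0.17 in PS19 Zbp1+/- against PS19 and -0.19 in PS19 Zbp1+/- against WT, where all genes lay at 0.09, -0.23 and -0.14. Scaled by total reads it was -0.07 in PS19 Zbp1+/- against PS19, with all genes at -0.12. Both scalings called 6 flanking genes lower and 0 higher in that comparison, adding Gm11007, Gm14322, Gm2004 and Npepl1 to Bcas1 and Edn3. Among all called genes there, the share that was higher was 27.9% as deposited, 11.1% with TPM and 14.7% with total reads, and in PS19 Zbp1+/- against WT it was 32.0%, 19% and 17.3%.

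With a mean FPKM of at least 5, which left 17 genes, the median was 0.36 in PS19 Zbp1+/- against PS19 and 0.21 against WT. All genes lay at 0.13 and 0.03 there. The median of the flanking genes was 0.15 without predicted genes, 0.13 within 2 Mb and 0.13 without copies or overlaps in PS19 Zbp1+/- against WT. Their median absolute difference in PS19 Zbp1+/- against PS19 was 0.53 with a pseudocount of 0.1 and 0.54 with TPM. All genes gave 0.35 and 0.36. With no filter on low values it was 0.20 in PS19 Zbp1+/- against PS19 and 0.18 in PS19 Zbp1+/- against WT. Both lay below all genes, at 0.25 and 0.20. The 39 flanking genes below an FPKM of 1 in every library cannot reach 1 log2 unit because of the pseudocount of 1, whatever their depth. Some of them differed beyond counting error in PS19 Zbp1+/- against WT, such as Gm14296 with a read ratio of 3.16 (1.87 to 5.55) and Mc3r with 0.237 (0.0704 to 0.637).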

Other observations

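Genes of other biotypes in the window numbered 115, and 7 of them reached an FPKM of 1 in any library. The pseudogene or noncoding genes among them with at least 100 reads in WT were Gm14303, with an FPKM of 48.8 for WT, 46.7 for PS19 and 46.2 for PS19 Zbp1+/-, and Ppp4r1l-ps, with 1.93, 2.36 and 1.85. Gm14269, which lies near Bcas1, had 30, 44 and 13 reads, and its read ratio of PS19 Zbp1+/- to PS19 was 0.323 (0.159 to 0.610). Gm14275 had 11, 2 and 0 reads. These genes were chosen after their values were seen.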
